A study of Homo sapiens with 4 samples.

Results

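C/D box snoRNAs are short nuclear RNAs, and 173 of the 22411 genes measured here belong to this family. The members are the transcript clusters to which the annotation of the array assigns a single symbol starting with SNORD. Where a symbol had more than 1 cluster (4 members), the cluster with the highest mean over all arrays was kept. A further 101 SNORD symbols occurred only in clusters shared between several genes and are not included. U266, an established human multiple myeloma cell line, was exposed for 24 h to trabectedin or, as control, to PBS (called untreated in the labels), and total RNA was hybridized to whole-transcript HTA 2.0 arrays. Trabectedin, an anticancer drug first obtained from a sea squirt, alkylates DNA from its minor groove and interferes with transcription. There were 2 trabectedin arrays and 2 control arrays, labelled as biological replicates. The methods state that the cells came from 2 different experiments and do not say which arrays share one. The dose is 2.5 nM in the sample labels and 2.5 μM in the treatment protocol, so its unit is not settled. All cells are of 1 line, which limits the arrays as a model of myeloma, and nothing was measured before the 24 h point.

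A C/D box snoRNA carries 2 short conserved boxes, C near its 5′ end and D near its 3′ end, which bind the methyltransferase fibrillarin and its partner proteins. The bases upstream of the D box pair with a target RNA, usually ribosomal RNA, and direct methylation of a ribose there, whereas a few members such as U3 take part in cleaving the ribosomal RNA precursor. In humans most are not transcribed on their own. They lie in introns of host genes, many of which encode ribosomal proteins or nucleolar proteins, and are trimmed out of the spliced and debranched intron. Other members lie in long tandem arrays at imprinted loci, and a small number have promoters of their own.

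Sequence was at hand for 2 snoRNAs, both given as genome sequence of the snoRNA strand from RefSeq (GRCh38.p14), 5′ to 3′. They are shown as examples of the layout that defines C/D box snoRNAs, which was not examined in the other members. Capitals mark the TGATG of the C box in both, the CTGA of the D box in SNORD58B and an internal CTGA in SNORD121B. SNORD121B is a member and lies within UBAP2 at chr9:33934315-33934375 on the minus strand, of which the first 61 of 79 bases are given. Its 3′ end, where the D box would lie, is outside this stretch, so its D box is not shown. SNORD58B, at chr18:49491664-49491729 on the minus strand, is given in full (66 bases). It is not a member, because its cluster carries several symbols, but it lies in RPL17 with the members SNORD58A and SNORD58C.
SNORD121B: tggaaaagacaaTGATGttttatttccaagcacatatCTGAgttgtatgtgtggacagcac
SNORD58B: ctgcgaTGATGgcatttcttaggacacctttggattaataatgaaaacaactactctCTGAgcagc
In SNORD58B the boxes start at bases 7 and 58 and leave 46 bases between them. Both motifs in this order, on either strand, occurred in the first 61 bases of 1.11% of 27305 promoter windows and in the first 66 bases of 1.29%, so the letters alone do not single out a snoRNA.

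The values are log2 expression as deposited, and a difference of 1 is 2-fold. The 9 markers of plasma cells or of U266 all lay above the median value of all genes (5.90), as did 1 of 7 markers of other cell types, the endothelial and myeloid marker PECAM1. MZB1 (mean 6.34), CD38 (8.22) and IL6 (8.33) were lower than PECAM1 (8.78). Between 843 and 899 features per array exceeded 16, the limit of a 16-bit scanner on this scale, and 14 members had a mean above it, so the deposited values must have been rescaled in a way that the sources used here do not state. The median of all genes was 5.88 and 5.94 on the trabectedin arrays and 5.83 and 5.90 on the control arrays. The labels name TRIzol for RNA extraction and the methods name column purification. Columns can lose RNAs as short as most members (33 to 237 bases, median 82), and how much of their RNA was recovered was not tested.

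Most C/D box snoRNAs had a higher mean after trabectedin, but none passed limma's test with the group as the only term. The log2 fold change, trabectedin over control, was above 0 for 143 of 173 members (82.7%) and below 0 for 30. Among all genes 71.0% were above 0. The median was 0.24 for the members and 0.10 for all genes. Scaling each array to its ribosomal protein genes moved the median of all genes by -0.22, to -0.12. The median of the members was then 0.021. Without this scaling the log2 fold change ran from -0.65 for SNORD114-4 to 1.20 for SNORD4B. With limma and Benjamini-Hochberg adjustment over all 22411 genes, 0 members and 0 genes in all (0%) were called, and the lowest adjusted p of a member was 0.12. Without adjustment, 19 members were higher and 1 lower at limma p under 0.05, against 1635 and 1501 of all genes. The t-test named in the methods gave 7 higher (4.05%) and 1 lower member (0.578%) at the same level, below the 6.25% and 4.43% of all genes, and 0 after Benjamini-Hochberg adjustment. With 2 arrays against 2, an exact two-sided permutation test of a single value cannot go below p = 0.333.

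By size, 36 members were at least 1.5-fold higher and 2 at least 1.5-fold lower, where all genes gave 2.8% higher and 4.63% lower. The 1.5-fold count rested on single arrays: it was 58 without trabectedin replicate 1, 23 without trabectedin replicate 2, 13 without control replicate 1 and 62 without control replicate 2. Scaled to ribosomal protein genes, 8 members were at least 1.5-fold higher and 4 lower. In 44 members (25.4%) both trabectedin arrays lay above both control arrays, and in 4 (2.31%) both lay below. Among all genes these shares were larger, 35.8% and 13.5%. The share of members at least 1.5-fold higher was thus above that of all genes, and the share without overlap below it. Arrays of 1 group differed in the members by a median of 0.41 between the trabectedin arrays and 0.39 between the control arrays, against 0.15 and 0.16 for all genes.

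The median difference was not the same in all classes of host or genomic cluster, as the plot of log2 fold changes by class shows. Members of the imprinted SNURF-SNRPN and DLK1-DIO3 clusters also lie within noncoding genes, SNHG14 and MEG8. They were kept as classes of their own and are not counted here as inside a host gene. The 76 members counted as inside a host gene had a median of 0.48, and 71 of them (93.4%) were above 0, against 71.0% of all genes. These members held 31 of the 36 that were at least 1.5-fold higher. The median was 0.54 for the 15 members in ribosomal protein genes, 0.47 for the 45 in other protein-coding genes and 0.35 for the 16 in noncoding host genes. It was 0.18 for the 50 members of the imprinted SNURF-SNRPN cluster, 0.09 for the 40 of the imprinted DLK1-DIO3 cluster and -0.03 for the 6 with promoters of their own. Scaled to ribosomal protein genes, the median inside host genes was 0.25 and that of all genes -0.12. Those of the SNURF-SNRPN and DLK1-DIO3 clusters were -0.040 and -0.13. For the remaining member, SNORD32B, no host was found in the annotation, and its log2 fold change was 0.19. Differences between the classes were not tested.

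**Figure D1:**
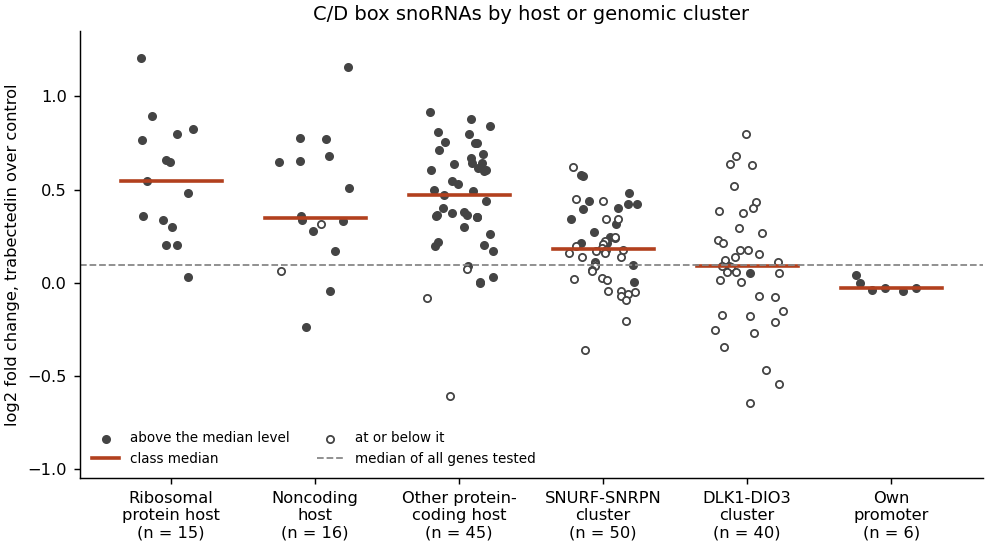
Log2 fold change (trabectedin over control, vertical axis) of 172 members by class, with 1 point per member, filled where its mean over the arrays is above the median value of all genes and open otherwise. Horizontal bars are class medians, highest for ribosomal protein hosts (0.54) and lowest for members with their own promoter (-0.03), and the dashed line is the median of all genes (0.10).

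Values also differed with brightness. Of the 97 members above the median value of all genes, 31 were at least 1.5-fold higher and 0 lower, with a median of 0.40. The 76 members at or below it had a median of 0.09, with 5 higher and 2 lower. Of the members inside a host gene 71 of 76 were above that value, against 18 of 50 in the SNURF-SNRPN cluster and 1 of 40 in the DLK1-DIO3 cluster, so class and brightness were not independent here. Among members above that value, the median was 0.50 inside host genes, 0.33 in the SNURF-SNRPN cluster and -0.03 for those with promoters of their own. Across all members Spearman's rho between mean value and log2 fold change was 0.47, and across the 76 inside a host gene it was 0.22. This is a description over members that share the same arrays.

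All 15 members in ribosomal protein genes had a positive log2 fold change, against 71.0% of all genes. In 8 of them (53.3%) both trabectedin arrays lay above both control arrays, against 35.8% of all genes. SNORD4B, which lies in RPL23A and has the largest log2 fold change of all members, had values of 11.57 and 11.38 on the trabectedin arrays and 10.00 and 10.54 on the control arrays. Both trabectedin values were higher than both control values, with a log2 fold change of 1.20 (SE 0.21, limma adjusted p = 0.12). SNORD42A, in another stretch of RPL23A, had 9.81 and 9.68 on the trabectedin arrays and 9.41 and 9.36 on the control arrays. Its log2 fold change of 0.36 was smaller, so the 2 snoRNAs of 1 host differed by 0.84, the widest range within any host.

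RPL4, a large-subunit protein gene, held 3 members without overlap between the groups. SNORD18A had 13.55 and 13.93 on the trabectedin arrays and 12.77 and 13.12 on the control arrays, a log2 fold change of 0.80 (SE 0.20, limma adjusted p = 0.19). SNORD18B had 9.92 and 9.08 on the trabectedin arrays and 8.79 and 8.42 on the control arrays, with a log2 fold change of 0.89 (SE 0.32, limma adjusted p = 0.33). These 2 are near copies of each other, so signal can be shared between them. SNORD16, the other RPL4 member, had 14.58 and 14.91 against 14.06 and 14.48 in the control, a log2 fold change of 0.48.

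In the other ribosomal protein hosts the picture was mixed. SNORD15A in RPS3 had 11.39 and 12.55 on the trabectedin arrays and 10.74 and 11.56 on the control arrays, so 1 trabectedin array lay below 1 control array. Its log2 fold change was 0.82, against 0.30 for its neighbour SNORD15B. In RPS13, SNORD14A and SNORD14B had log2 fold changes of 0.76 and 0.54, and only SNORD14A showed no overlap. In RPL17, SNORD58C had 13.95 and 13.93 on the trabectedin arrays and 13.38 and 13.21 on the control arrays, a log2 fold change of 0.65 (limma adjusted p = 0.13). The value for SNORD58A, from the same gene, was 0.20.

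Noncoding hosts are genes whose spliced RNA codes for no known protein. GAS5 contained SNORD75, with 11.20 and 11.95 on the trabectedin arrays and 9.54 and 11.29 on the control arrays. Its log2 fold change of 1.16 was the second highest of all members, but the groups overlapped and the SE was 0.63 (limma adjusted p = 0.49). Without control replicate 1, which gave the low value, it was 0.28. SNORD78, also in GAS5, had 15.46 and 15.57 on the trabectedin arrays and 14.21 and 15.53 on the control arrays, again with 1 control array apart from the other 3 arrays. ZFAS1 carried SNORD12, SNORD12B and SNORD12C, with log2 fold changes of 0.68, 0.66 and 0.77, all with overlap. SNORD12C had 11.92 and 12.09 on the trabectedin arrays and 10.54 and 11.93 on the control arrays.

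SNORD93 in SNHG26 was the noncoding-host member with the largest log2 fold change among those without overlap. It had 15.78 and 16.03 on the trabectedin arrays and 14.58 and 15.68 on the control arrays, a log2 fold change of 0.77 (SE 0.38, limma adjusted p = 0.45). The trabectedin value of replicate 1 exceeded the higher control value by less than the 2 control values differed. SNORD60 in SNHG19, the brightest of the class, had a log2 fold change of 0.33 with overlap. The members SNORD88A, SNORD88B and SNORD88C in C19orf48P had log2 fold changes of -0.24, 0.06 and -0.04, and 2 of these were the only values below 0 in the class.

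**Figure D2:**
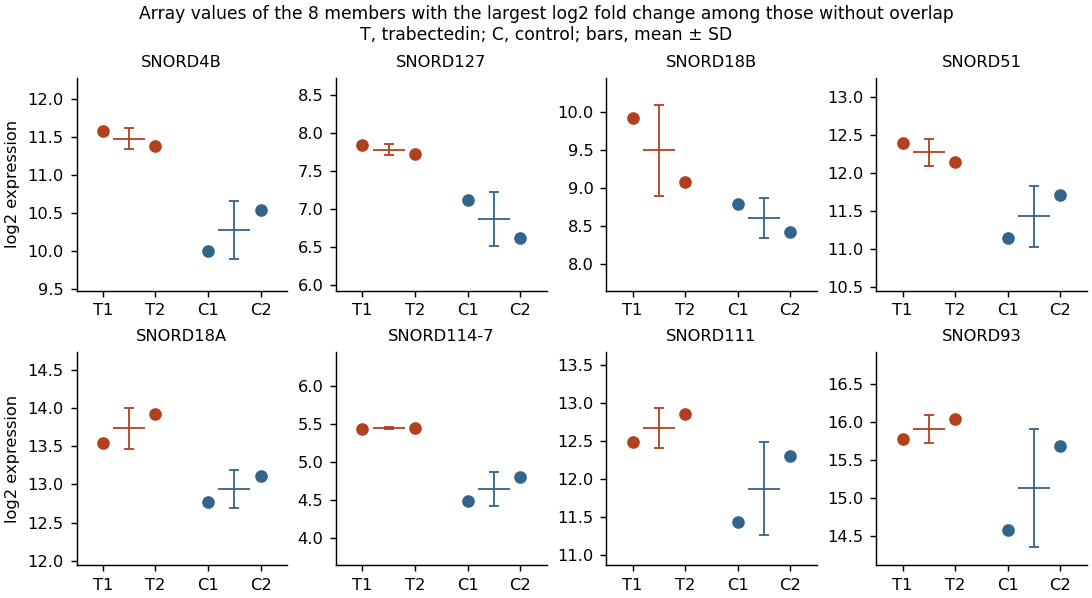
Log2 expression on each array for the 8 members with the largest log2 fold change among those whose groups did not overlap, trabectedin arrays (T1, T2) left of control arrays (C1, C2). Bars give mean ± SD of 2 arrays, and the SD spans as much as 0.78 in the control arrays of SNORD93 but 0.38 in those of SNORD4B.

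Among the 45 members in other protein-coding hosts, 42 (93.3%) had a log2 fold change above 0, against 71.0% of all genes. SNORD127 in PRPF39, a gene for a splicing factor, had 7.84 and 7.73 on the trabectedin arrays and 7.12 and 6.62 on the control arrays. The log2 fold change was 0.92 (SE 0.20, limma adjusted p = 0.16), without overlap. SNORD51 in EEF1B2, which encodes a translation elongation factor subunit, had 12.39 and 12.14 on the trabectedin arrays and 11.14 and 11.71 on the control arrays. Its log2 fold change was 0.84 (SE 0.23, limma adjusted p = 0.22). SNORD111 in SF3B3, a subunit gene of the splicing factor SF3b, had 12.48 and 12.86 on the trabectedin arrays and 11.44 and 12.31 on the control arrays. Here the groups were 0.18 apart at their nearest values, and the log2 fold change was 0.80 (SE 0.32, limma adjusted p = 0.38).

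Hosts that themselves encode proteins of the nucleolus or of snoRNA particles held several members. In NCL, the gene of nucleolin, SNORD20 had 9.67 and 9.03 on the trabectedin arrays and 8.87 and 8.32 on the control arrays, and SNORD82 had 16.39 and 16.79 against 16.02 and 16.28 in the control. Both were without overlap, with log2 fold changes of 0.75 and 0.44. NOP58, which encodes a core protein of the C/D particle, held SNORD11, SNORD11B and SNORD70 with log2 fold changes of 0.67, 0.60 and 0.69. All 3 overlapped between the groups. In HSPA8, the gene of a constitutive heat shock protein, SNORD14D and SNORD14E had 0.88 and 0.55, also with overlap. The brightest member of the class, SNORD41 in TNPO2, a nuclear import receptor gene, had 17.67 and 18.04 on the trabectedin arrays and 17.42 and 17.59 on the control arrays. It did not overlap, and its log2 fold change was 0.35.

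Only 1 member inside a host gene was at least 1.5-fold lower. SNORD125 in AP1B1 had 4.53 and 3.94 on the trabectedin arrays and 5.21 and 4.46 on the control arrays, below the median value of all genes on every array. The groups overlapped, and the log2 fold change was -0.61 (limma adjusted p = 0.48). SNORD121B, whose sequence is given above, had 6.78 and 6.96 on the trabectedin arrays and 6.57 and 6.99 on the control arrays, a log2 fold change of 0.09. Its neighbour in UBAP2, SNORD121A, had 7.79 and 8.63 on the trabectedin arrays and 7.29 and 7.63 on the control arrays, without overlap, and a log2 fold change of 0.75.

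SnoRNAs from 1 host share a primary transcript, and 20 hosts had more than 1 member (44 members). Within a host the log2 fold changes spanned a median range of 0.30, with the narrowest range 0.01 in SF3B3 and the widest 0.84 in RPL23A. The length of a member was weakly related to its log2 fold change inside host genes (Spearman's rho -0.17 over 76 members, a description).

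For 26 of the 52 hosts the host gene had a transcript cluster of its own symbol, which allowed the snoRNA to be set beside its host, and 35 members lie in them. In 21 of these 26 hosts the median of the members was above the log2 fold change of the host. The hosts had a median log2 fold change of 0.16, and the member medians had a median of 0.38. In NCL the host had 14.65 and 14.32 on the trabectedin arrays and 14.17 and 14.11 on the control arrays, a log2 fold change of 0.35. SF3B3 itself had a log2 fold change of 0.08, against 0.80 for SNORD111. The values of PRPF39 were 11.16 and 10.32 on the trabectedin arrays and 10.19 and 10.14 on the control arrays, a log2 fold change of 0.58 against 0.92 for SNORD127. TNPO2 had 0.33, close to the 0.35 of SNORD41, and RPS3 had 0.25.

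Host and snoRNA could also lie far apart. SIPA1L1, which encodes a GTPase-activating protein of Rap, had 6.82 and 7.76 on the trabectedin arrays and 10.52 and 10.44 on the control arrays. The log2 fold change of this host was -3.19 (limma adjusted p = 0.076). SNORD56B, which lies inside its bounds, had 8.64 and 7.61 on the trabectedin arrays and 7.77 and 7.19 on the control arrays, a log2 fold change of 0.64 with overlap. Of the 6 hosts with a log2 fold change below 0, 4 had a member median above 0. Over the 26 hosts Spearman's rho between host and member median was 0.44, and over the 23 hosts whose members all lay above the median value of genes it was 0.27. Both are descriptions of values from the same arrays. The annotation used gives no strand for the snoRNAs, so hosts were assigned by position only, and whether a given member lies in an intron was not examined.

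**Figure D3:**
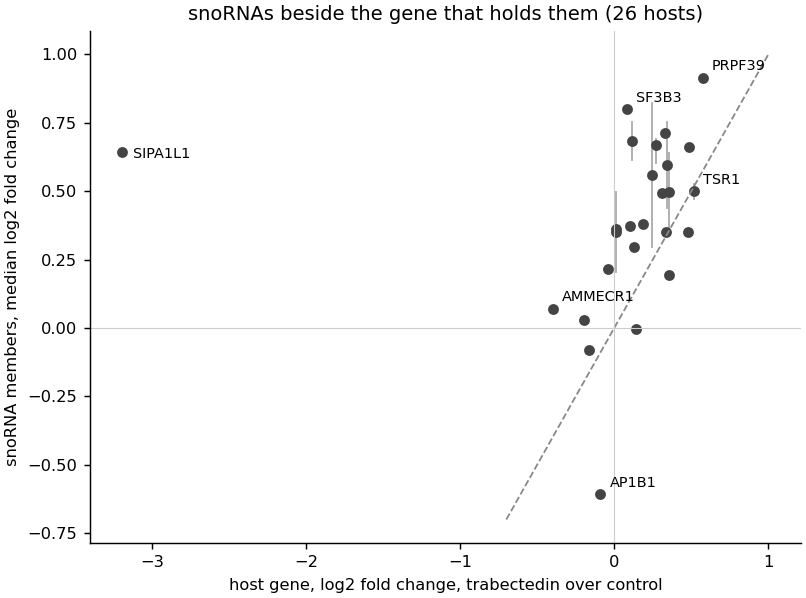
Median log2 fold change of the members (vertical axis) against that of their host gene (horizontal axis) for the 26 hosts with a cluster of their own, trabectedin over control on both axes. Grey lines span the members of a host and the dashed line marks equal values, with 21 points above it and SIPA1L1 far to the left at -3.19.

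Genes for ribosomal proteins and many snoRNA hosts start transcription within a run of pyrimidines, the terminal oligopyrimidine tract, which is known to couple translation of their mRNA to growth signals. The starts of the hosts with more than 1 member and such a run are shown because the members differ in their host, as 25 bases before and 5 from the annotated start (RefSeq, GRCh38.p14). Capitals mark the unbroken run of C and T over the start as far as the window reaches. The whole run is 14 bases in RPS3 and 10 in RPS13, which the window cuts, and 7 in ZFAS1. RPS3 lies at chr11:75399493-75399522 (plus strand), RPS13 at chr11:17077663-17077692 (minus strand) and ZFAS1 at chr20:49278617-49278646 (plus strand) in these windows.
RPS3: actcacttccgcccgcgagccaCTTCCTTT
RPS13: cctgcggcgtttccactctcgCTCTCCTTT
ZFAS1: agggaggttcaggaagccattcgTTCTTTC
A run of at least 5 pyrimidines over the start occurred in 13 of the 41 hosts found in the promoter table (31.7%), against 9.80% of 27305 genes. The median of the member medians was 0.35 for the 13 hosts with the run and 0.40 for the 28 without it. The split rests on a single annotated start per host, and the ribosomal protein genes RPL4 and RPL17 had no run there. It therefore cannot show whether the tract matters for the members, which was not tested.

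The imprinted SNURF-SNRPN cluster on chromosome 15 is expressed from the paternal copy and carries the tandem families SNORD116, whose loss is linked to Prader-Willi syndrome, and SNORD115, known from neurons. The 31 measured SNORD115 copies all lay below the median value of genes, with means from 3.49 to 5.46. The 19 SNORD116 copies had means from 5.02 to 15.83, and 18 of them lay above it. All 19 had a log2 fold change above 0, against 71.0% of all genes, with a median of 0.32. In only 2 (10.5%) both trabectedin arrays lay above both control arrays, against 35.8% of all genes. These were SNORD116-8, with 11.62 and 12.47 on the trabectedin arrays and 11.36 and 11.58 on the control arrays, and SNORD116-12, with 7.58 and 7.67 against 7.23 and 7.06 in the control.

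For SNORD116 the difference lay mostly on 1 trabectedin array. Trabectedin replicate 2 exceeded replicate 1 by a median of 0.86, whereas control replicate 2 exceeded control replicate 1 by a median of 0.06, with copies on both sides of 0 and a median size of the difference of 0.22. SNORD116-17, the brightest of the family, had 15.63 and 16.25 on the trabectedin arrays and 15.70 and 15.74 on the control arrays. Replicate 1 thus lay below both control arrays and replicate 2 above both, and the log2 fold change was 0.21. SNORD116-14 had 13.33 and 14.34 on the trabectedin arrays and 13.33 and 13.18 on the control arrays, with a log2 fold change of 0.58. Without trabectedin replicate 2 the median of the family was -0.10. The SNORD115 copies had a median log2 fold change of 0.14, with 23 (74.2%) above 0, against 71.0% of all genes, and 8 below. Copies within a family are near-identical, so their values are not independent and signal can be shared between them.

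In the DLK1-DIO3 cluster on chromosome 14 the noncoding RNAs are expressed from the maternal copy. They include SNORD113 and SNORD114, families without a known ribosomal RNA target. The 40 members of this cluster had means from 3.17 to 6.48 and only SNORD114-31 lay above the median value of genes. In 11 of them (27.5%) both trabectedin arrays lay above both control arrays and in 4 (10.0%) both lay below, shares under the 35.8% and 13.5% of all genes. SNORD114-7 had 5.44 and 5.46 on the trabectedin arrays and 4.49 and 4.81 on the control arrays, a log2 fold change of 0.80 (SE 0.15, limma adjusted p = 0.13). SNORD114-4 had 4.46 and 4.09 on the trabectedin arrays and 4.64 and 5.20 on the control arrays, a log2 fold change of -0.65 (SE 0.24, limma adjusted p = 0.35). SNORD114-14, SNORD114-12 and SNORD114-24 were lower by smaller differences, with log2 fold changes of -0.27, -0.21 and -0.15. These neighbours of 1 family thus had differences of opposite sign at values where most genes are dim. SNORD114-31, the brightest, had 6.73 and 6.27 on the trabectedin arrays and 6.31 and 6.59 on the control arrays, with overlap.

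**Figure D4:**
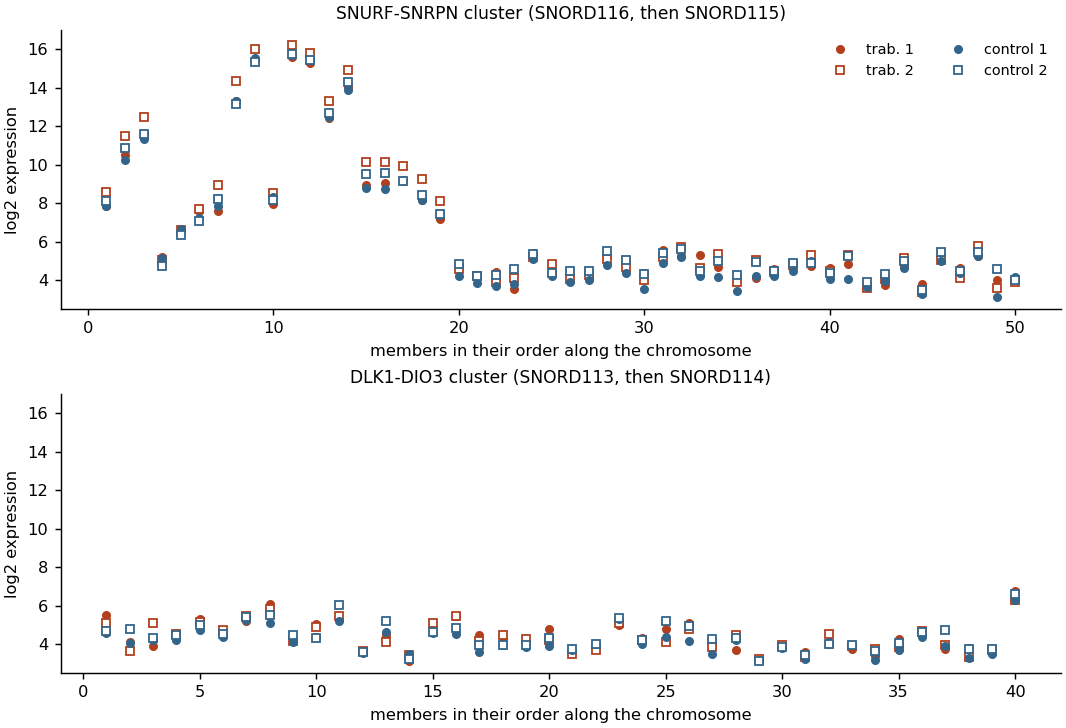
Log2 expression of the members of both imprinted clusters on each array (red, trabectedin; blue, control; filled circles, replicate 1; open squares, replicate 2) in their order along the chromosome. SNORD116 copies reach 15.83 in their mean and then give way to SNORD115 copies between 3.49 and 5.46, and the DLK1-DIO3 members stay between 3.17 and 6.48.

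The 6 members with promoters of their own were the copies of SNORD3 and SNORD13, which encode U3 and U13. Of these, U3 is used in processing of the ribosomal RNA precursor. SNORD13 had 19.37 and 19.67 on the trabectedin arrays and 19.41 and 19.54 on the control arrays, a log2 fold change of 0.04. SNORD3A had 16.44 and 17.13 on the trabectedin arrays and 16.43 and 17.22 on the control arrays, a log2 fold change of -0.04. In both groups replicate 2 was higher than replicate 1, and the groups overlapped. The log2 fold changes of SNORD3B-1 and SNORD3B-2 were -0.03 each, that of SNORD3C was -0.05 and that of SNORD3D was below 0.01 in size. SNORD3B-1 and SNORD3B-2 had identical values on every array, so these near-identical copies do not count as separate measurements. The SE was 0.15 for SNORD13 and 0.34 to 0.38 for the SNORD3 copies.

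Array by array, the difference of the members inside host genes depended on which arrays were set against each other, as the plot of single-array differences shows. Trabectedin replicate 1 exceeded control replicate 1 by a median of 0.49 (69 of 76 members higher), and trabectedin replicate 2 exceeded control replicate 2 by 0.41 (64 of 76). Trabectedin replicate 2 exceeded control replicate 1 by 0.86 (70 of 76). Against control replicate 2, however, trabectedin replicate 1 had a median difference of -0.03, and 34 of 76 members were higher. Within the groups, replicate 2 exceeded replicate 1 by 0.38 for trabectedin and by 0.46 for control.

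The 3 host classes lay close together in this comparison. For ribosomal protein hosts the difference of trabectedin replicate 1 from control replicate 2 was 0.05, for noncoding hosts -0.07 and for other protein-coding hosts -0.01. Leaving out 1 array left the median of the members inside host genes above 0, but moved it to 0.66 without trabectedin replicate 1, 0.24 without trabectedin replicate 2, 0.20 without control replicate 1 and 0.71 without control replicate 2. The number at least 1.5-fold higher, 31 with all arrays, was 42, 16, 9 and 44 in the same order. For all genes the median moved only between 0.06 and 0.13.

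**Figure D5:**
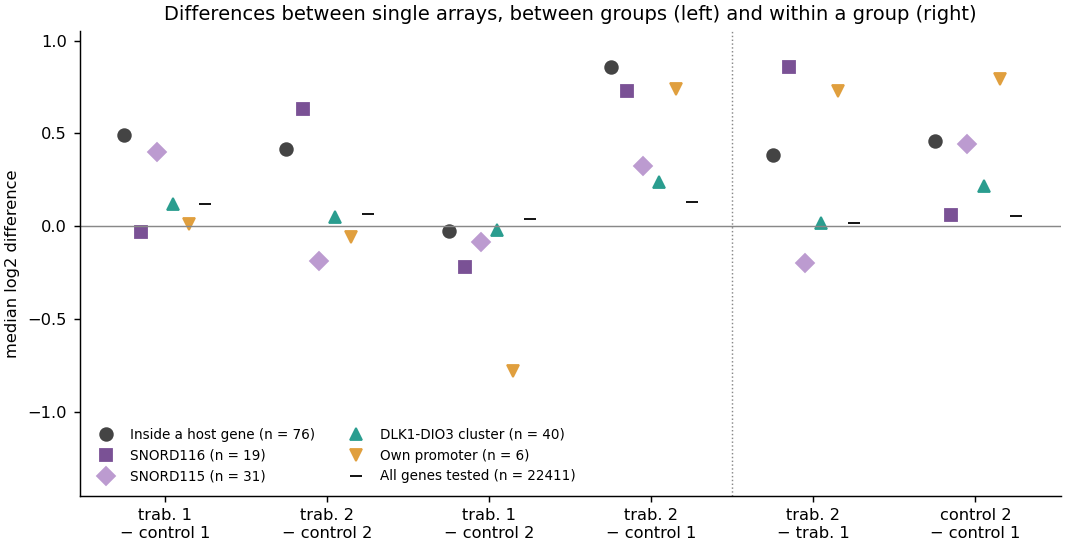
Median log2 difference between single arrays (vertical axis) for 5 sets of members and for all genes, with the 4 comparisons between the groups left of the dotted line and the 2 within a group right of it. Members inside a host gene lie at 0.49, 0.41, -0.03 and 0.86 between the groups, beside 0.38 and 0.46 within them, while all genes stay between 0.02 and 0.13.

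H/ACA snoRNAs, the second large snoRNA class, guide pseudouridylation and are mostly hosted in introns too. The 64 genes named SNORA had a median log2 fold change of 0.29, and 10 (15.6%) were at least 1.5-fold higher and 0 lower, against 2.8% and 4.63% of all genes. In 12 (18.8%) both trabectedin arrays lay above both control arrays, against 35.8% of all genes. Trabectedin replicate 1 exceeded control replicate 1 by a median of 0.28, and trabectedin replicate 2 exceeded control replicates 1 and 2 by 0.81 and 0.24. The median difference of trabectedin replicate 1 from control replicate 2 was -0.29.

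Genes for the proteins that build and process C/D particles were examined beside their RNAs. Of the 31 genes listed, 30 were measured and 0 were called. The median log2 fold change was 0.26, with 24 above 0 (80.0%, against 71.0% of all genes) and 6 below. In 19 (63.3%) both trabectedin arrays lay above both control arrays, against 35.8% of all genes. The median was 0.042 when scaled to ribosomal protein genes, beside -0.12 for all genes. Of the core proteins, the methyltransferase gene FBL had 12.19 and 11.97 on the trabectedin arrays and 11.91 and 11.90 on the control arrays, a log2 fold change of 0.17. NOP58 and SNU13 had 0.27 and 0.30, both with overlap, and NOP56 was not measured by a cluster of its own.

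Among the assembly factors, which load the core proteins, PIH1D1 had 9.61 and 9.39 on the trabectedin arrays and 9.02 and 8.86 on the control arrays, a log2 fold change of 0.56 (limma adjusted p = 0.19). ZNHIT3 had 0.46, RPAP3 0.32 and RUVBL2 0.20, each without overlap. RUVBL1, an ATPase that works with RUVBL2, had 8.18 and 8.49 on the trabectedin arrays and 8.62 and 8.70 on the control arrays, a log2 fold change of -0.33. ECD, NOPCHAP1, NUFIP1 and ZNHIT6 had values between -0.09 and 0.07 and overlapped.

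Of the genes for trafficking and maturation, 2 were at least 1.5-fold higher and 1 lower. DBR1, the lariat debranching enzyme that frees intronic snoRNAs, had 9.53 and 9.40 on the trabectedin arrays and 8.55 and 8.88 on the control arrays. Its log2 fold change was 0.75 (limma adjusted p = 0.15). COIL, the gene of the Cajal body protein coilin, had 11.47 and 11.19 on the trabectedin arrays and 10.70 and 10.76 on the control arrays, a log2 fold change of 0.60 (limma adjusted p = 0.18). PARN, a deadenylase that trims the 3′ ends of small RNAs, had 9.55 and 10.05 on the trabectedin arrays and 10.85 and 10.91 on the control arrays, a log2 fold change of -1.08 (limma adjusted p = 0.12). This was the largest difference of the list in size.

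The other genes of this group had smaller values. NOLC1 and XPO1 had log2 fold changes of 0.37 and 0.38, PHAX and NCBP2 0.32 each and TGS1 0.27, all without overlap. The exonuclease genes had -0.37 for XRN1, 0.10 for XRN2 and 0.17 for EXOSC10, and the cap-binding gene NCBP1 had -0.13. The 6 genes of the U3 particle, RRP9, UTP15, UTP4, MPHOSPH10, IMP3 and IMP4, all had both trabectedin arrays above both control arrays, against 35.8% of all genes. Their log2 fold changes ran from 0.05 for RRP9 (-0.17 when scaled to ribosomal protein genes) to 0.38 for IMP3, beside values near 0 for the SNORD3 copies themselves.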

How the data were processed

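U266 cells were profiled on 4 HTA 2.0 arrays, 2 with trabectedin and 2 controls, grouped by the sample labels. The authors deposited log2 expression values per transcript cluster, made with RMA in Affymetrix Expression Console per the labels, and the genome build of the array annotation is not given in the sources used here. The values were used as deposited. Of 70523 features 23781 had 1 symbol, 1543 several and 45199 none, and the brightest cluster per symbol gave 22411 genes, with symbols updated through RefSeq (23777 features matched). All genes were fitted with limma 3.58.1 in R 4.3.3 (lmFit and eBayes, group as the only term), with Benjamini-Hochberg adjustment over all genes and calls at an adjusted p of 0.05. The fit was tested on simulated data. No filter on low values was applied, and the number of arrays limits the precision. Hosts are RefSeq genes that contain the snoRNA, and a protein-coding host went before a noncoding one. Members of the imprinted clusters and those with promoters of their own were classed by symbol and left out of the host counts. The design had named hosts on the same strand, but the table gives no strand for snoRNAs, so strand was not used.

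Members and lists were chosen with earlier results of these data known. Named members were the 8 highest and the 8 lowest by log2 fold change among those without overlap (only 4 were lower), the brightest of each class (that of 1 class is not reported here), all copies of SNORD3 and SNORD13, their measured hosts and the particle genes. Other members named, and the hosts SIPA1L1, RPS3, NCL and AP1B1, were chosen after their values were seen. The alternatives were other scalings (repeated quantile normalization, 50 ribosomal protein genes, the array median), a replicate block, a mean-variance trend, all features in the fit, the mean of all clusters of a symbol, a filter on low values, a threshold of 2-fold, the methods' t-test, and leaving out each array.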

Additional observations from a re-analysis of the deposited data

How the results depend on the processing

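No member was called when limma was run with a mean-variance trend, other scalings, all features, the mean of clusters, the filter or without any array. Same-numbered arrays share only a number in the labels. The methods name 2 different experiments, so equal numbers may mark a shared experiment, which is not stated. Over all genes the deviations of the 2 pairs correlated (Pearson's r 0.56, and 0.32 over the members). With the replicate block, 20 members (11.6%) were called higher and 1 (0.578%), SNORD125, lower, against 499 (2.23%) and 893 (3.98%) of all genes. Of the other genes named, PIH1D1, DBR1, PARN and SIPA1L1 passed limma with the block, and PARN and SIPA1L1 also when scaled to ribosomal protein genes (limma adjusted p = 0.030 and 0.020). The methods' t-test gave 7 (4.05%) and 1 (0.578%) without adjustment, against 6.25% and 4.43% of all genes. Members at least 1.5-fold higher numbered 20 after repeated quantile normalization, 8 when scaled to ribosomal protein genes, 18 when centred on the median and 2 at 2-fold, with 13 to 62 when 1 array was left out. Those lower numbered 4 when scaled to ribosomal protein genes, 0 under the filter or at 2-fold, and 1 to 7 with an array left out. Under the filter, members without overlap numbered 29 higher (29.9%) and 0 lower. Among all genes above the median value these shares were larger, 33.2% and 20.7%. With an array left out, members without overlap numbered 52 to 125 higher and 9 to 38 lower, where fewer arrays overlap less by construction.

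The scalings moved the median of all genes by -0.10 (quantile), -0.22 (ribosomal protein genes) and -0.11 (median), and the median inside host genes stayed above 0 (0.36, 0.25 and 0.36). Scaled to ribosomal protein genes, the medians were 0.021 for all members, -0.040 for SNURF-SNRPN, -0.13 for DLK1-DIO3 and 0.042 for the particle genes, beside -0.12 for all genes. With an array left out, medians ran from 0.08 to 0.41 for all members, 0.34 to 0.71 for ribosomal protein hosts, 0.12 to 0.67 for noncoding hosts, 0.19 to 0.72 for other hosts, 0.052 to 0.35 for SNURF-SNRPN, -0.0041 to 0.19 for DLK1-DIO3, -0.42 to 0.37 for own promoters and 0.16 to 0.32 for the particle genes.

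The sign turned when scaled to ribosomal protein genes for SNORD116-17 (-0.0070), SNORD114-31 (-0.17), SNORD13 (-0.18), SNORD32B (-0.027), SNORD58A (-0.022), SNORD88B (-0.16), SNORD121B (-0.13), SF3B3 (-0.14), FBL (-0.047), RUVBL2 (-0.021), ECD (-0.15), NOPCHAP1 (-0.15), XRN2 (-0.12), EXOSC10 (-0.048) and RRP9 (-0.17), and after quantile normalization for SNORD114-31 (-0.035), SNORD88B (-0.037), SF3B3 (-0.077), ECD (-0.066) and XRN2 (-0.021). With an array left out it turned for SNORD60 (-0.10 to 0.76), SNORD116-17 (-0.10 to 0.53), SNORD114-31 (-0.18 to 0.28), SNORD13 (-0.11 to 0.19), SNORD3A (-0.43 to 0.35), SNORD3B-1 and SNORD3B-2 (-0.46 to 0.40), SNORD3C (-0.40 to 0.31), SNORD3D (-0.40 to 0.39), SNORD78 (-0.013 to 1.30), SNORD14E (-0.084 to 1.18), SNORD88B (-0.30 to 0.43), SNORD88C (-0.18 to 0.093), SNORD58A (-0.058 to 0.46), SNORD121B (-0.12 to 0.30), SNORD15B (-0.11 to 0.70), AP1B1 (-0.28 to 0.10), SF3B3 (-0.11 to 0.28), NUFIP1 (-0.39 to 0.26), ZNHIT6 (-0.27 to 0.091), ECD (-0.018 to 0.16), NOPCHAP1 (-0.0056 to 0.14) and NCBP1 (-0.26 to 0.0063). The cause of these turns was not tested.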
